A study of Mus musculus with 6 samples.

Results

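The genes followed here encode the subunits of ligand-gated ion channels, the pores that open when glutamate, GABA, glycine, acetylcholine, serotonin or ATP binds to them. They were picked by a rule on gene names, which was chosen with earlier results of these data known. Every row of the deposited expression table named as a subunit of an AMPA, kainate, NMDA, GABA-A, glycine, nicotinic, P2X or 5-HT3 receptor was taken, which gave 65 of the 24264 genes. The tissue was the lumbar dorsal root ganglion, where the cell bodies of sensory neurons sit, dissected from mouse embryos at E12.5.

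The questions are which subunits are on at this age, and which differ once 3 microRNAs are lost. The 3 miR CKO mice were flox/flox for the miR-183-96-182 cluster and carried Wnt1-Cre, a recombinase driven by the Wnt1 promoter. It acts in the neural crest, the origin of the neurons and glia of these ganglia, and deletes both floxed copies there. Vessel, blood and muscle cells in a dissected ganglion are outside that lineage. The 3 control mice were of unlike genotype, since controls 1 and 3 were titled Wnt-Cre and control 2 was titled WT. All 6 mice had a mixed C57/Bl6 x 129/SvEv background, and all 6 libraries of poly(A) RNA shared a run and a lane. The labels state neither sex nor pooling of embryos.

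Glutamate receptors of the AMPA, kainate and NMDA types excite neurons and are built from subunits that set their speed, calcium entry and traffic. GABA-A and glycine receptors pass chloride, nicotinic and 5-HT3 receptors pass cations, and these belong to a shared superfamily with a pentameric ring. P2X receptors are ATP-gated cation channels, and P2X3, the product of P2rx3, is known as a channel of pain-sensing neurons. In mature ganglia GABA-A receptors also sit on the central endings of sensory neurons, where they take part in presynaptic inhibition.

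Values are RPKM, reads per kilobase of gene model and per M mapped reads (M, mega), so levels of different genes are set side by side per length. The estimated depth was 20.9 to 22.5 M reads in miR CKO libraries and 20.2 to 24.3 M reads in control libraries. All 12 sensory neuron markers were on, summing to 1896 to 2737 RPKM in miR CKO and 1929 to 2421 RPKM in control libraries, led by Tubb3, Stmn2 and Isl1. All 8 glial markers were on as well, among them Fabp7 and Sox10 (890 to 992 RPKM in miR CKO, 836 to 1108 RPKM in controls). Some libraries stood apart. The 14 skeletal muscle markers, led by Acta1, Actc1 and Tnnt1, summed to 31.7, 35.7 and 45.7 RPKM in miR CKO 1 to 3, against 33.1, 197 and 151 RPKM in controls 1 to 3. The 11 spinal cord markers, led by Lhx1, Pax6 and Pax2, summed to 5.57, 2.15 and 26.9 RPKM in miR CKO 1 to 3, against 2.50, 6.60 and 6.39 RPKM in controls 1 to 3, and the motor neuron gene Mnx1 was listed at 0 throughout. Not all of them peaked in miR CKO 3. Olig2 was highest in miR CKO 1 (0.896 RPKM), Nkx6-1 in control 2 (1.20 RPKM) and Dbx1 in control 3 (0.665 RPKM). Sox1 was at 1.68 RPKM in miR CKO 1 and 1.77 RPKM in miR CKO 3. Xist, transcribed from an inactive X, reached 96.0 RPKM in miR CKO 1 and no more than 0.0890 RPKM in any other library. The Y-linked genes Ddx3y and Eif2s3y were at 0.00979 and 0 RPKM in miR CKO 1. In the other libraries Ddx3y was at 11.3 to 13.6 RPKM and Eif2s3y at 17.2 to 22.9 RPKM. By these genes miR CKO 1 was female and the others were male, so the groups differed in sex. The 8 mesenchyme markers summed to 137 to 232 RPKM in miR CKO and 157 to 304 RPKM in control libraries (led by Col3a1, Col1a1 and Col2a1). Endothelial markers (led by Cdh5, Pecam1 and Kdr) summed to 62.4 to 91.3 RPKM in miR CKO and 64.2 to 75.5 RPKM in controls. Macrophage markers (led by Csf1r, C1qb and C1qa) summed to 9.93 to 19.1 RPKM in miR CKO and 12.6 to 20.2 RPKM in controls. The 3 red cell markers found (Beta-s and Alas2 among them) summed to 409 to 638 RPKM in miR CKO and 414 to 950 RPKM in controls. Of 7 sympathetic markers only Th and Slc18a2 were on, and the defining Dbh stayed at or below 0.158 RPKM. No marker gene passed the test between groups. Mir183, Mir96 and Mir182 were listed at 0 in all 6 libraries, and since poly(A) libraries hold few microRNA precursors, this checks nothing.

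The deleted microRNAs pair with messages through their seed, bases 2 to 8. Their mature sequences are shown because sites in the subunit messages are read against these seeds, which the capitals mark (RefSeq, GRCm38.p6, chromosome 6, minus strand).
miR-183-5p: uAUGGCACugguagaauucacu
miR-96-5p: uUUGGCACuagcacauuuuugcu
miR-182-5p: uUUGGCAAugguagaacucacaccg
The sites searched were GTGCCATA, GTGCCAT and TGCCATA for miR-183, GTGCCAAA, GTGCCAA and TGCCAAA for miR-96, and TTGCCAAA, TTGCCAA and TGCCAAA for miR-182. TGCCAAA is shared by miR-96 and miR-182 and was counted once.

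Of the 65 subunit genes, 27 were on, meaning 1 RPKM or more in at least 3 of the 6 libraries. The ganglia expressed all 4 AMPA and all 5 kainate subunit genes, 1 of 7 NMDA, 5 of 19 GABA-A, 2 of 5 glycine, 7 of 16 nicotinic, 2 of 7 P2X and 1 of 2 5-HT3 subunit genes at that level. P2rx3 stood above all others with a mean of 105 RPKM over the 6 libraries, and the nicotinic Chrnb2 averaged 25.8, the kainate Grik5 14.2 and the nicotinic Chrna3 12.2 RPKM. P2rx3 ranked 496 in the whole table by mean level. Subunits at 1 RPKM or more numbered 25, 24 and 26 in miR CKO 1 to 3 and 25, 26 and 30 in controls 1 to 3. A further 35 were above 0 somewhere, and Chrna2, Gabra6 and Glra3 were listed at 0 in every library.

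**Figure D1:**
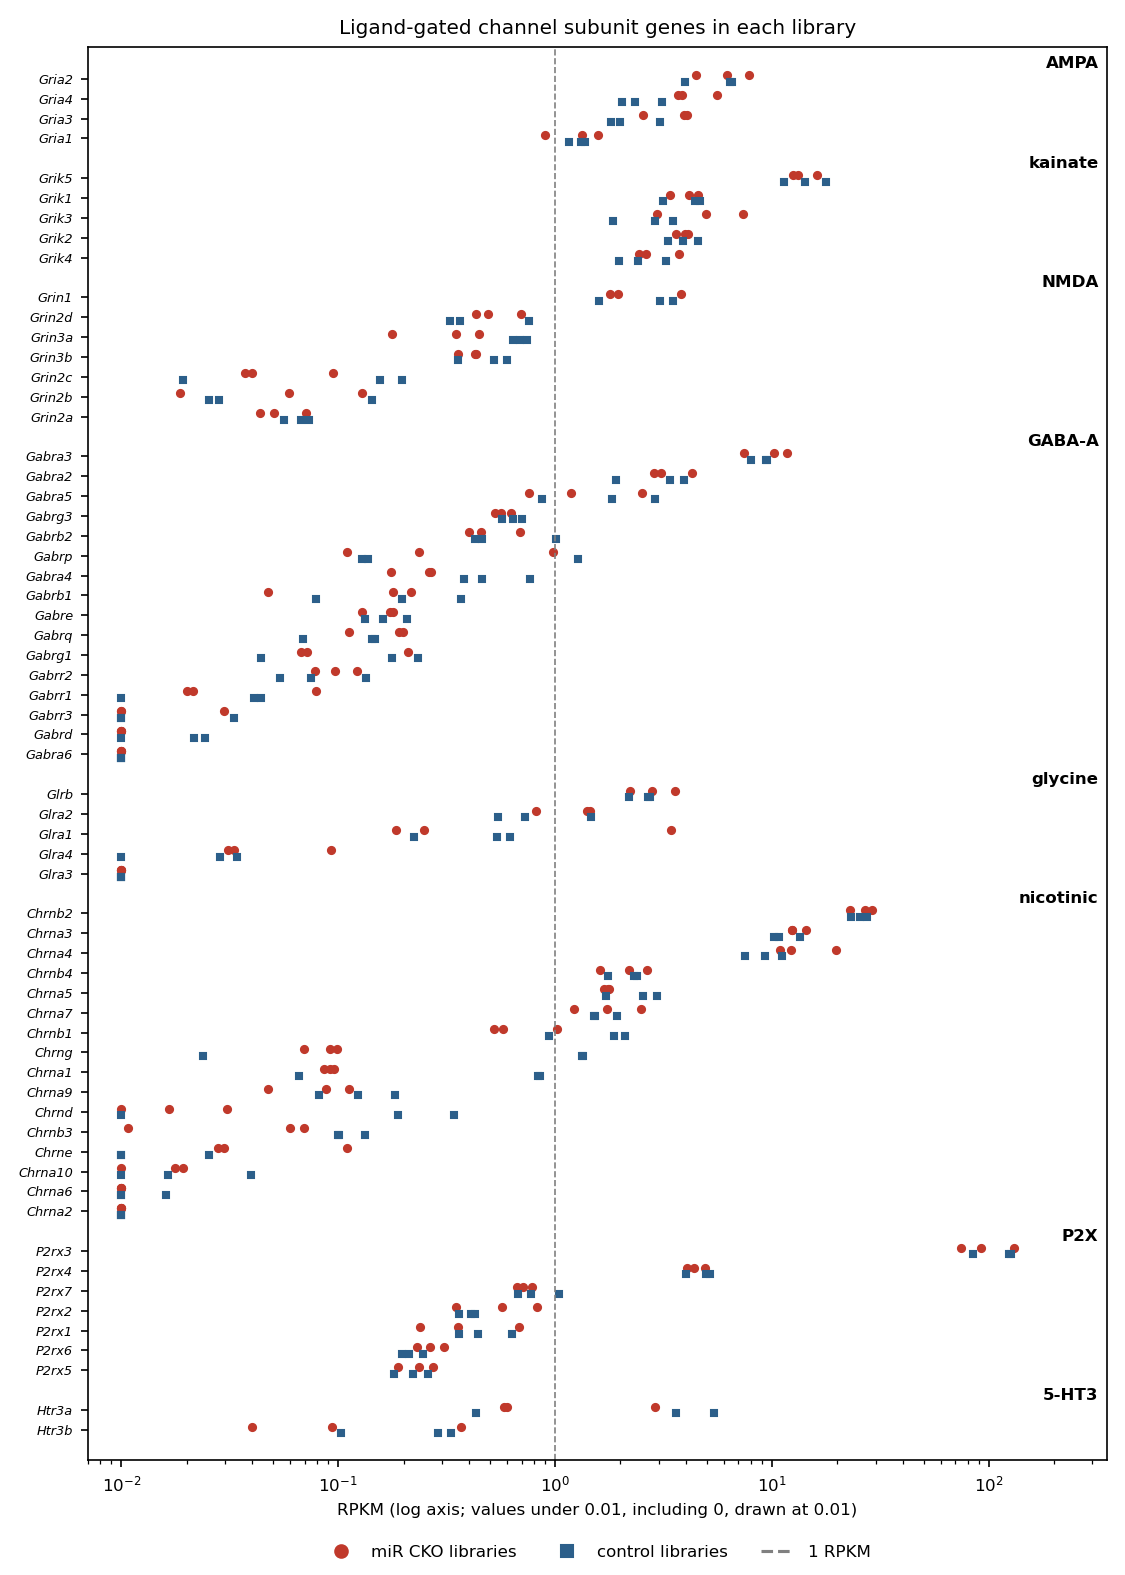
RPKM (log axis) of 62 of the 65 subunit genes in each library, grouped by receptor family and ordered by mean, with miR CKO libraries as red circles above control libraries as blue squares. P2rx3 sits apart at 74.3 to 131 RPKM, whole families of AMPA and kainate subunits lie near or right of the dashed line at 1 RPKM, and most NMDA, GABA-A and nicotinic subunits lie left of it.

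None of the 27 subunit genes tested passed the threshold between miR CKO and control. The test was limma on log2(RPKM + 1), which understates the change of low genes, with Benjamini-Hochberg adjustment over 13118 genes, and the smallest adjusted p of a subunit was 0.638. Over all genes 8 passed, 0.061% of those tested. At an unadjusted p under 0.05, 2 of the 27 subunits, Gria4 and Chrna4, were higher and 1, Chrnb1, was lower in miR CKO. Over all tested genes 2.85% were higher and 2.31% were lower at that mark, 5.16% in all. The subunits' log2 changes (miR CKO minus control) had a median of 0.062, with 15 above 0 and 12 below, and the median of all tested genes was -0.024. Of all 13118 tested genes 5297 (40.4%) had a log2 change above 0. The sign of the subunit median rested on single libraries, at -0.015 without miR CKO 1, -0.0072 without control 2 and 0.13 without control 3, and it was -0.0082 over the 62 subunits in the fit of all genes above 0. The subunits' range was -0.70 to 0.66, with SEs of 0.104 to 0.605. By this test no subunit's change stood out from the spread between libraries.

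**Figure D2:**
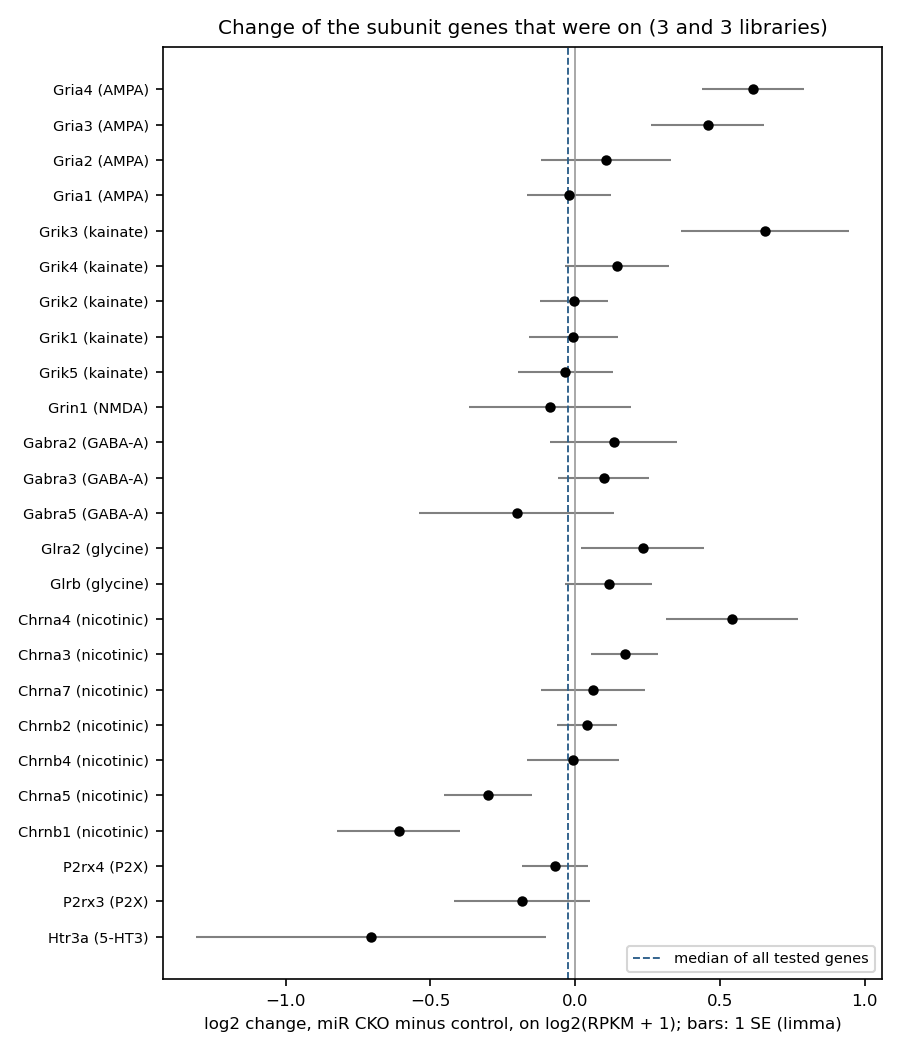
Log2 change (miR CKO minus control, on log2(RPKM + 1)) of 25 of the 27 subunit genes that were on, by family, with bars of 1 SE from limma (3 and 3 libraries). Grik3, Gria4, Chrna4 and Gria3 lie farthest to the right and Htr3a and Chrnb1 farthest to the left, and the dashed line marks the median of all tested genes, -0.024.

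Among the AMPA subunits, which carry fast excitation, Gria2 was highest. Gria2 encodes GluA2, the subunit that keeps calcium out, and it was at 7.87, 4.44 and 6.17 RPKM in miR CKO 1 to 3 and at 6.39, 3.98 and 6.52 RPKM in controls 1 to 3. It made up 36.6 to 42.8% of the family's RPKM in miR CKO and 42.5 to 54.6% in control libraries. Gria4 encodes GluA4 and was at 5.57, 3.84 and 3.68 RPKM in miR CKO 1 to 3, against 2.34, 2.02 and 3.11 RPKM in controls 1 to 3. All 3 miR CKO libraries were above all 3 controls, and Gria4 was the only tested subunit whose groups did not overlap in either direction. Of all tested genes 4.63% were higher and 6.24% lower without overlap, 10.9% in all. Its means were 4.36 ± 1.05 RPKM in miR CKO and 2.49 ± 0.559 RPKM in controls (SD, n = 3 each). The log2 change was 0.61 with an SE of 0.175 (limma adjusted p = 0.638). Gria3, for GluA3, was at 4.06, 2.53 and 3.91 RPKM in miR CKO 1 to 3 and at 1.81, 1.99 and 3.03 RPKM in controls 1 to 3. Control 3 lay above miR CKO 2, so the groups overlapped, and the log2 change was 0.46 (SE 0.195, limma adjusted p = 0.968). Gria3 lies on the X chromosome, as do Gabra3 and Glra2 among the subunits on. Without miR CKO 1, the library with Xist, the log2 change of Gria3 was 0.36. Gria1, for GluA1, was lowest at 0.901 to 1.58 RPKM in miR CKO and 1.16 to 1.37 RPKM in controls.

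Each AMPA subunit gene's annotated main transcript carries a cluster site in its 3 prime UTR. The sites of the 3 highest are shown with 8 bases on either side, in capitals, read along the message (GENCODE M21, mm10).
Gria4 (miR-183, chr9:4419495-4419501, minus strand): tgataataGTGCCATcactgtaa
Gria3 (miR-182, chrX:41678477-41678483, plus strand): cagaaaaaTTGCCAAgcaaacta
Gria2 (miR-96, chr3:80683480-80683486, minus strand): aggttaatGTGCCAAtttcattt
These are 7mer matches to seed bases 2 to 8. The Gria2 site starts at base 5232 of its annotated 3 prime UTR. The gene model behind the Gria2 values was shorter than the main transcript, with an implied length of 7512 beside 10371 bases. Whether the Gria2 messages in these ganglia reach the site was not tested. Gria1 holds the miR-96 8mer GTGCCAAA and a miR-183 site, and its groups overlapped.

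The kainate family was led by Grik5, whose product GluK5 is a high-affinity subunit that forms channels only together with GluK1, GluK2 or GluK3. Grik5 was at 16.2, 12.46 and 13.1 RPKM in miR CKO 1 to 3 and at 11.4, 14.1 and 17.7 RPKM in controls 1 to 3, with overlapping groups, and it held 43.2 to 55.0% of the family's RPKM. Grik1, for GluK1, the kainate subunit best known from sensory neurons, was at 4.55, 4.13 and 3.38 RPKM in miR CKO 1 to 3 and at 4.65, 3.13 and 4.42 RPKM in controls 1 to 3. The groups for Grik1 covered nearly the same range. Grik3, for GluK3, was at 4.94, 2.96 and 7.35 RPKM in miR CKO 1 to 3, against 1.86, 3.50 and 2.89 RPKM in controls 1 to 3. Its highest values were in miR CKO 3 and 1, control 2 was above miR CKO 2, and the log2 change was 0.66 (SE 0.290, limma adjusted p = 0.989). Without miR CKO 3, where the sum of the spinal cord markers was also highest, it was 0.40, and the part of spinal cord RNA in the level of Grik3 was not tested. Grik2 (3.61 to 4.08 RPKM in miR CKO, 3.30 to 4.55 RPKM in controls) and Grik4 (2.43 to 3.72 RPKM in miR CKO, 1.98 to 3.26 RPKM in controls) completed the family. Grik3 carries a miR-182 7mer, shown in capitals and read along the message (GENCODE M21, mm10), because its change was the highest of the 27.
Grik3 (chr4:125714026-125714032, plus strand): tgtgttacTTGCCAAtcattcta

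Of the NMDA subunits, Grin1 alone was on. Grin1 encodes GluN1, the obligatory subunit, and was at 3.80, 1.94 and 1.78 RPKM in miR CKO 1 to 3 and at 3.06, 1.59 and 3.49 RPKM in controls 1 to 3. It was highest in miR CKO 1 and in controls 1 and 3, so the groups overlapped. The GluN2 genes, which complete the glutamate-binding receptor, stayed under 1 RPKM. Grin2d was the highest of them at 0.430 to 0.694 RPKM in miR CKO and 0.326 to 0.761 RPKM in controls. Grin2a stayed at or below 0.0731 RPKM, Grin2b at or below 0.143 RPKM and Grin2c at or below 0.197 RPKM. The gene models behind the values were short for Grin2a and Grin2b, with implied lengths of 4414 and 7279 bases beside main transcripts of 14634 and 24060 bases. Grin3b was at 0.356 to 0.432 RPKM in miR CKO and 0.357 to 0.598 RPKM in controls.

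Grin3a was named after its values were seen. It encodes GluN3A, a glycine-binding NMDA subunit prominent early in development, and was at 0.444, 0.177 and 0.349 RPKM in miR CKO 1 to 3, against 0.740, 0.636 and 0.690 RPKM in controls 1 to 3. These stand for an estimated 33, 13 and 24 reads in miR CKO and 53, 51 and 46 reads in controls. All miR CKO libraries lay below all controls. Its level kept it out of the main test, and in a fit of all genes above 0 it did not pass (log2 change -0.36, limma adjusted p = 0.694).

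**Figure D3:**
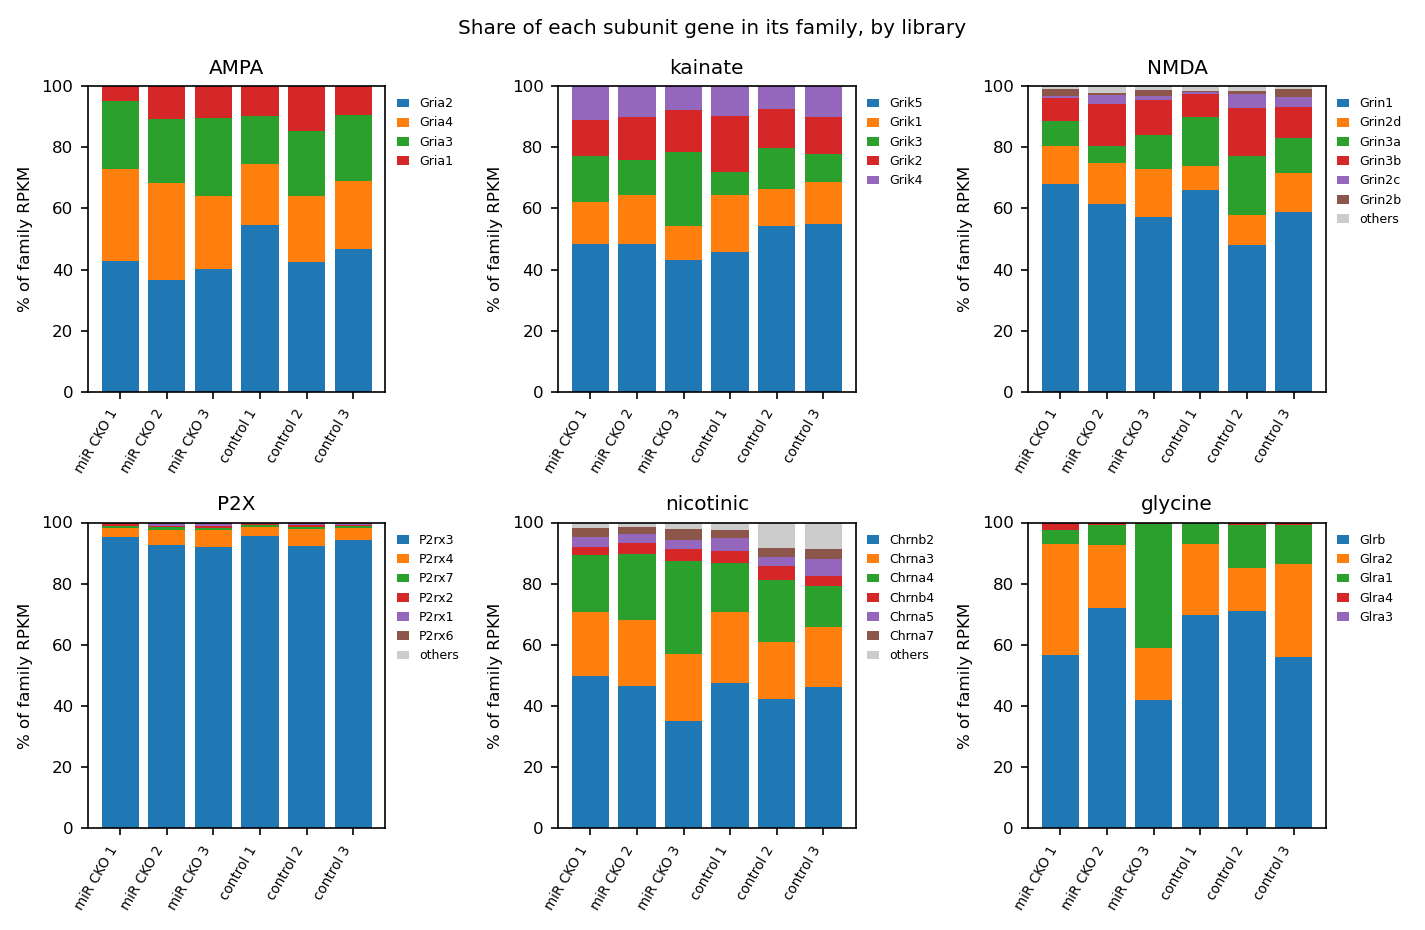
Share (%) of each subunit gene in the summed RPKM of its family, in each library, for 6 receptor families, with miR CKO libraries left of controls. The leading subunit is Gria2, Grik5, Grin1, P2rx3, Chrnb2 or Glrb in each panel, Glra1 reaches 40.5% of the glycine family in miR CKO 3, and Chrna4 reaches 30.3% of the nicotinic family there.

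Of the GABA-A genes that were on, 3 encode alpha subunits, which form the GABA site together with a beta subunit. Gabra3, for alpha3, was at 11.7, 10.2 and 7.42 RPKM in miR CKO 1 to 3 and at 9.46, 7.97 and 9.37 RPKM in controls 1 to 3, with miR CKO 3 the lowest of all. Gabra2, for alpha2, was at 2.87 to 4.26 RPKM in miR CKO and 1.92 to 3.92 RPKM in controls. Its annotated 3 prime UTR has GTGCCAAA, the 8mer of miR-96, at 2 places, from bases 207 and 1141. The gene model behind the Gabra2 values was shorter than the main transcript, with an implied length of 2385 beside 5852 bases. Whether the Gabra2 messages reach both places was not tested. Gabra5, for alpha5, was at 2.51, 1.19 and 0.759 RPKM in miR CKO 1 to 3 and at 1.82, 0.868 and 2.89 RPKM in controls 1 to 3, high in miR CKO 1 and in controls 1 and 3.

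The other 14 GABA-A genes did not reach the mark. Gabrg3 (0.531 to 0.628 RPKM in miR CKO, 0.570 to 0.704 RPKM in controls) and Gabrb2 (0.399 to 0.687 RPKM in miR CKO, 0.427 to 1.01 RPKM in controls) came nearest, and Gabra6 was listed at 0 throughout. Gabrp was at 0.110, 0.237 and 0.978 RPKM in miR CKO 1 to 3 and at 0.128, 1.27 and 0.138 RPKM in controls 1 to 3, high in a single library of each group. Gabrb1, Gabre, Gabrq, Gabrg1, Gabrr1, Gabrr2, Gabrr3 and Gabrd did not exceed 0.368 RPKM. Gabra4 was named after its values were seen, at 0.176, 0.267 and 0.261 RPKM in miR CKO 1 to 3, against 0.764, 0.458 and 0.380 RPKM in controls 1 to 3. All miR CKO values lay below all controls, but Gabra4 did not pass in the fit of all genes above 0 (log2 change -0.31, limma adjusted p = 0.878). Gabra4 overlaps Gabrb1, and Gabra5 overlaps another gene, on opposite strands, and no source states whether the counting used strand, so the split within these pairs is uncertain.

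GABA-A genes lie in clusters, and on and off genes stood side by side in them. On chromosome 5, Gabra2 was on while Gabrg1, Gabra4 and Gabrb1 were not. Gabra5 on chromosome 7 was on while Gabrg3 was not, and Gabra3 on the X chromosome was on between Gabre and Gabrq, which were not. The nicotinic cluster of Chrna5, Chrna3 and Chrnb4 on chromosome 9 and the pair Gria2 and Glrb on chromosome 3 were on throughout. In all, 31 of the 65 genes lay within 500000 bases of another member, in 12 clusters, of which 6 held both on and off genes and 4 held none that was on.

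The glycine receptor genes that were on were Glrb and Glra2. Glrb encodes the beta subunit that anchors the receptor to gephyrin and was at 2.21, 2.80 and 3.55 RPKM in miR CKO 1 to 3 and at 2.18, 2.73 and 2.68 RPKM in controls 1 to 3. Glra2, the alpha subunit known as the embryonic form in the nervous system, was at 1.41, 0.812 and 1.45 RPKM in miR CKO 1 to 3 and at 0.729, 0.546 and 1.46 RPKM in controls 1 to 3. Both genes overlapped between groups. Glra1, the alpha subunit of adult spinal glycine receptors, was at 0.185, 0.250 and 3.42 RPKM in miR CKO 1 to 3 and at 0.224, 0.542 and 0.618 RPKM in controls 1 to 3. The high value was that of miR CKO 3 alone, an estimated 103 reads against 6 to 19 in the other libraries. In the same library Lhx1, a transcription factor of spinal interneurons, was at 9.07 RPKM and at 0.314 to 1.90 RPKM in the others. Gad2, an enzyme of GABA synthesis, was at 4.24 RPKM in miR CKO 3 and at 0.0420 to 0.864 RPKM in the others. The part of spinal cord RNA in the level of Glra1 was not tested. Glra4 stayed at or below 0.0921 RPKM and Glra3 was listed at 0.

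Nicotinic receptors in neurons pair alpha and beta subunits. Chrnb2, the beta2 partner of alpha4 and alpha3, was at 29.0, 26.8 and 22.9 RPKM in miR CKO 1 to 3 and at 27.5, 23.2 and 25.5 RPKM in controls 1 to 3. It varied least of the subunits on, by 1.27 times from the lowest to the highest library, and its log2 SE of 0.104 was the smallest. Chrna3, the alpha3 subunit of ganglionic receptors, was at 12.3, 12.4 and 14.3 RPKM in miR CKO 1 to 3 and at 13.5, 10.2 and 10.8 RPKM in controls 1 to 3, with control 1 inside the miR CKO range. Chrna4, for alpha4, was at 10.8, 12.2 and 19.8 RPKM in miR CKO 1 to 3, against 9.29, 11.1 and 7.5 RPKM in controls 1 to 3. Its means were 14.3 ± 4.81 RPKM in miR CKO and 9.29 ± 1.78 RPKM in controls (SD, n = 3 each), and control 2 lay above miR CKO 1. The log2 change was 0.54 (SE 0.228, limma adjusted p = 0.964), and 0.30 without miR CKO 3, where the sum of the spinal cord markers was also highest. Chrna4 has no cluster site in its 3 prime UTR.

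The remaining neuronal subunits were lower. Chrna5, the accessory alpha5 subunit, was at 1.67 to 1.77 RPKM in miR CKO and at 2.54, 1.71 and 2.95 RPKM in controls 1 to 3. Its groups overlapped through control 2, and the log2 change was -0.30 (SE 0.153, limma adjusted p = 0.9996). It was -0.18 without control 3 and -0.46 without control 2. Chrnb4, which shares the cluster on chromosome 9 with Chrna5 and Chrna3, was at 1.6 to 2.65 RPKM in miR CKO and 1.76 to 2.37 RPKM in controls. Chrna7, whose product forms receptors of a single subunit type, was at 1.22 to 2.49 RPKM in miR CKO and 1.52 to 1.94 RPKM in controls. Chrna9, Chrna10, Chrna6 and Chrnb3 did not exceed 0.183 RPKM, and Chrna2 was listed at 0. Chrnb3, named after its values were seen, was below all controls in all 3 miR CKO libraries (0.0107 to 0.0693 RPKM in miR CKO, 0.0993 to 0.133 RPKM in controls), at an estimated 1 to 7 reads in miR CKO and 9 to 13 reads in controls.

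The muscle type receptor is built from Chrna1, Chrnb1 and Chrnd products with Chrng in the fetus or Chrne in the adult. Chrng was at 0.0918, 0.0698 and 0.0992 RPKM in miR CKO 1 to 3 and at 0.0238, 1.34 and 1.33 RPKM in controls 1 to 3. Chrna1 was at 0.0952, 0.0857 and 0.0913 RPKM in miR CKO 1 to 3 and at 0.0658, 0.833 and 0.849 RPKM in controls 1 to 3. Both were high in controls 2 and 3 and low in control 1 as in all miR CKO libraries, so their groups overlapped. Chrnd was at an estimated 2, 0 and 1 reads in miR CKO 1 to 3 and 0, 24 and 11 reads in controls 1 to 3. Chrne was at an estimated 4, 1 and 1 reads in miR CKO 1 to 3 and 0, 1 and 0 reads in controls 1 to 3, around the 3 reads taken as the floor. Chrnb1 was at 0.578, 0.523 and 1.02 RPKM in miR CKO 1 to 3, against 0.942, 1.87 and 2.09 RPKM in controls 1 to 3. Its log2 change was -0.61 (SE 0.213, limma adjusted p = 0.836). Chrnb1 reached 1 RPKM only in miR CKO 3 and controls 2 and 3, so it is on and tested through those libraries, and it was not testable without any of them. Its 3 prime UTR holds the miR-182 8mer TTGCCAAA, and its mean was 0.708 ± 0.275 RPKM in miR CKO and 1.64 ± 0.611 RPKM in controls (SD, n = 3 each).

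Myog, a muscle transcription factor, was also highest in controls 2 and 3, at 0.264, 0.714 and 2.76 RPKM in miR CKO 1 to 3 and at 0.396, 13.1 and 14.8 RPKM in controls 1 to 3. Of 14 muscle markers, the 8 that were tested all had a log2 change below 0, with a median of -1.65, and none was called. Among them Myog, Myh3, Myl1 and Myl4 reached 1 RPKM only in miR CKO 3 and controls 2 and 3, so they were tested through those libraries. Control 1, at 33.1 RPKM summed over the markers, lay within the miR CKO range of 31.7 to 45.7 RPKM. The direction therefore describes controls 2 and 3 and not the control group. Rapsn, which clusters the muscle receptor, was at 0.162, 0.0820 and 0.262 RPKM in miR CKO 1 to 3 and at 0.0280, 0.700 and 0.962 RPKM in controls 1 to 3. The endplate gene Musk was also highest in controls 2 and 3 (0.365 and 0.330 RPKM). Other endplate genes did not follow these libraries. Dok7 and Agrn were lowest in control 2 (0.133 and 85.6 RPKM), and Lrp4 was highest in miR CKO 3 (3.80 RPKM). The part of muscle RNA in the levels of Chrng, Chrna1, Chrnd and Chrnb1 was not tested. In whole tissue, fewer cells of a type and less RNA per cell cannot be told apart.

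Promoters of the muscle receptor genes Chrna1, Chrng, Chrnb1 and Chrne were read for CAGCTG, an E-box that myogenic factors bind and that is its own reverse complement. It occurs 2 times each in the windows of Chrna1 and Chrng, from 250 bases before to 50 after the RefSeq start, and not in that of Chrnb1. The stretches from 180 bases before to 20 after the start are shown because they hold these matches, in capitals (RefSeq, GRCm38.p6).
Chrna1 (chr2:73580319-73580518, minus strand): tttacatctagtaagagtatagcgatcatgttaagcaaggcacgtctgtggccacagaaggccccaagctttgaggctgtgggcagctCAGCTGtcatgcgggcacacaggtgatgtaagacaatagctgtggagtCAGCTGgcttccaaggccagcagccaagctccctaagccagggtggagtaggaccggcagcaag
Chrng (chr1:87205631-87205830, plus strand): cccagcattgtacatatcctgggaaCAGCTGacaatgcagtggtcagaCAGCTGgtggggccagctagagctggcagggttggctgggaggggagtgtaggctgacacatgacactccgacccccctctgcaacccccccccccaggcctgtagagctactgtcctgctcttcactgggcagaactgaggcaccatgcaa
The motif was in 16.3% of 32851 promoters and in 8 of 52 subunit promoters (15.4%, from 46 matched genes). Those of Chrne and Chrnb4 hold it 1 time each, and those of Chrna3, Chrna5, Chrnb2 and Chrna4 do not hold it.

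**Figure D4:**
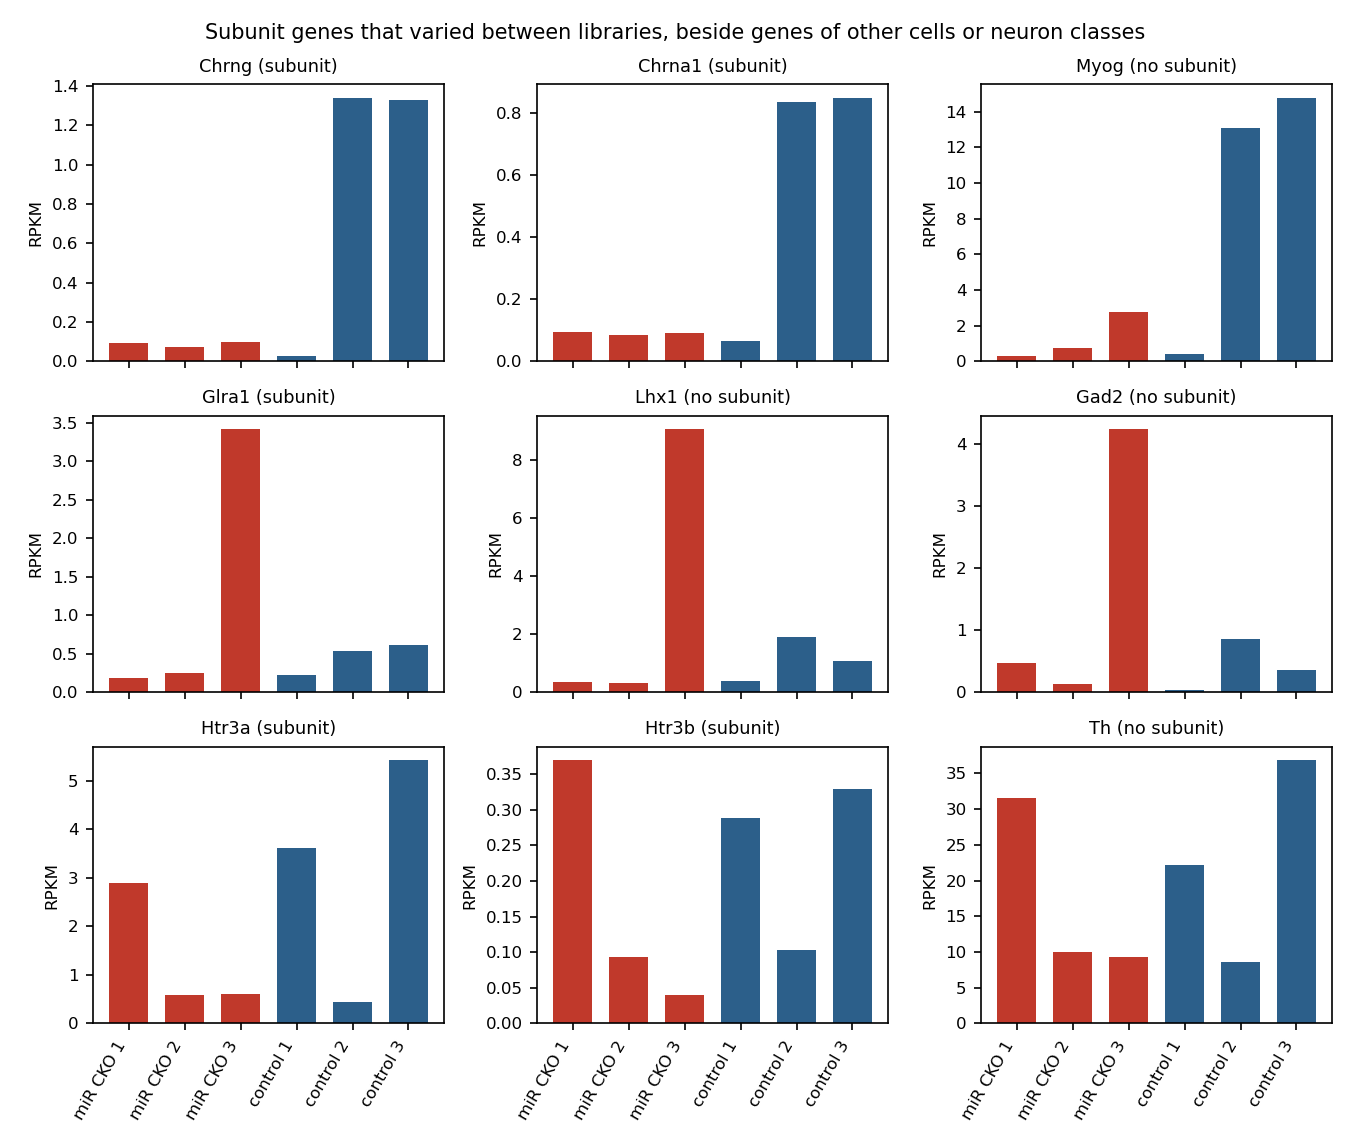
RPKM (linear axes from 0) in each library of 5 subunit genes and of 4 genes that encode no subunit, with miR CKO libraries (red) left of controls (blue). Chrng and Chrna1 are high in controls 2 and 3 with Myog, Glra1 in miR CKO 3 with Lhx1 and Gad2, and Htr3a in miR CKO 1 and controls 1 and 3 with Htr3b and Th.

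P2rx3 carried nearly the whole P2X signal. It was at 131, 91.8 and 74.3 RPKM in miR CKO 1 to 3 and at 126, 84.1 and 124 RPKM in controls 1 to 3, which was 92.0 to 95.5% of the family's RPKM. The log2 change was -0.18 (SE 0.235, limma adjusted p = 0.9996), and without miR CKO 3 it was 0.00068, so the sign rests on that library. P2rx4, the ATP channel also known from microglia and macrophages, was at 4.06, 4.90 and 4.38 RPKM in miR CKO 1 to 3 and at 4.02, 4.97 and 5.16 RPKM in controls 1 to 3, within the same range in both groups. P2rx2, which joins P2X3 in mixed channels, was at 0.349 to 0.827 RPKM in miR CKO and 0.362 to 0.429 RPKM in controls. P2rx7 was at 0.666 to 0.779 RPKM in miR CKO and 0.673 to 1.05 RPKM in controls, and P2rx1 was at 0.237 to 0.685 RPKM in miR CKO and 0.360 to 0.631 RPKM in controls. P2rx6 stayed at or below 0.307 RPKM and P2rx5 at or below 0.272 RPKM. The miR-183 site of P2rx3 lies 15 bases into its 3 prime UTR and is shown in capitals because this is the most abundant subunit message (GENCODE M21, mm10).
P2rx3 (chr2:84998992-84998998, minus strand): ttcccaggGTGCCATgcttatcc

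Htr3a, the subunit that every 5-HT3 receptor needs, varied more between libraries than any other tested subunit. It was at 2.89, 0.582 and 0.597 RPKM in miR CKO 1 to 3 and at 3.62, 0.433 and 5.43 RPKM in controls 1 to 3, a range of 12.52 times. It was high in miR CKO 1 and controls 1 and 3, and low in the others, so the split ran across both groups. The log2 change was -0.70 (SE 0.605, limma adjusted p = 0.9996), -0.49 without miR CKO 2 and -1.35 without control 2. Htr3b followed at lower level, at 0.370, 0.0936 and 0.0399 RPKM in miR CKO 1 to 3 and at 0.288, 0.103 and 0.330 RPKM in controls 1 to 3. Th, the enzyme that makes the precursor of dopamine, was at 31.6, 10.03 and 9.33 RPKM in miR CKO 1 to 3 and at 22.2, 8.57 and 36.9 RPKM in controls 1 to 3, high in the same libraries. Whether neuron numbers of a class set these levels was not tested. Of the 27 subunits on, 11 had their highest value in miR CKO 1, 7 in miR CKO 3, 2 in control 1 and 7 in control 3, and 12 had their lowest in control 2.

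Of the 27 tested subunits, 14 (51.9%) had a cluster site in the 3 prime UTR, beside 33.5% of 12151 tested genes with an annotated one. Their median 3 prime UTR was 1951 bases long, beside 1097 bases for all tested genes, and a longer UTR holds more matches to any short motif. The median log2 change was 0.089 in the 14 subunits with a site, 9 of which were above 0, and -0.0061 in the 13 without, 6 of which were above 0. Over all tested genes it was 0.0043 in 4076 genes with a site, 2116 of which were above 0. In the 8075 without it was -0.036, and 2777 were above 0. These medians are descriptions with no test. Gria4, Gria3 and Grik3 have a site, as does Chrnb1, while Chrna4 has none. Among untested subunits without overlap, Grin3a, which was lower in miR CKO, has a miR-182 7mer. Gabra4 and Chrnb3, also lower, and Chrne, higher, have no site.

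Genes that work with these channels were read from 7 lists, and none of their members passed. As a background for these lists, 40.4% of all tested genes had a log2 change above 0. Without overlap between groups, 4.63% of all tested genes were higher and 6.24% lower in miR CKO. Of 20 genes for glutamate receptor auxiliary subunits and assembly, 14 were tested and 11 of these had a log2 change above 0, with a median of 0.090. Shisa6, an AMPA receptor auxiliary protein with the smallest p of the list, was at 1.75 to 1.96 RPKM in miR CKO and 0.845 to 1.497 RPKM in controls, without overlap (log2 change 0.38, limma adjusted p = 0.868). Its log2 change was 0.25 without control 2. Next were Cacng5, at 7.95 ± 2.39 RPKM in miR CKO and 5.88 ± 0.977 RPKM in controls, and Abhd6, at 4.19 ± 0.139 RPKM in miR CKO and 4.63 ± 0.0574 RPKM in controls (SD, n = 3 each). Abhd6 was lower in miR CKO without overlap, and the groups for Cacng5 overlapped. The AMPA receptor auxiliary genes Cacng4, Cacng7 and Cnih2 were abundant, at 22.9, 23.6 and 24.7 RPKM on average. Of 14 glutamate receptor scaffolds, 11 were tested with a median log2 change of -0.0060, and 5 were above 0. Dlg3, which encodes SAP102, was at 12.6 to 12.8 RPKM in miR CKO and 9.79 to 11.6 RPKM in controls, without overlap (log2 change 0.27, limma adjusted p = 0.721). Grip1, a scaffold of GluA2, was at 13.8 ± 0.962 RPKM in miR CKO and 15.4 ± 0.520 RPKM in controls, lower without overlap. Dlg4, for PSD-95, was at 28.3 ± 3.44 RPKM in miR CKO and 25.5 ± 4.89 RPKM in controls (SD, n = 3 each for both genes).

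Among the 9 tested genes that anchor or assemble inhibitory receptors, 7 had a log2 change above 0. Nlgn2, the neuroligin of inhibitory synapses, was at 28.8, 25.4 and 28.0 RPKM in miR CKO 1 to 3 and at 21.1, 21.5 and 24.2 RPKM in controls 1 to 3, without overlap (log2 change 0.29, limma adjusted p = 0.618). Gphn, for gephyrin, was at 15.3 ± 0.119 RPKM in miR CKO and 13.8 ± 0.262 RPKM in controls, without overlap (SD, n = 3 each, limma adjusted p = 0.974). The chloride importer Slc12a2 was at 14.0 ± 1.26 RPKM in miR CKO and 15.4 ± 1.01 RPKM in controls, while the chloride exporter Slc12a5 was under the mark at 0.578 ± 0.142 RPKM in miR CKO and 0.554 ± 0.179 RPKM in controls (SD, n = 3 each). The potassium-chloride cotransporter Slc12a7 was at 13.5 to 14.7 RPKM in miR CKO and 15.8 to 18.3 RPKM in controls, lower without overlap (log2 change -0.25, limma adjusted p = 0.717). Of 3 tested genes for chloride and cation-chloride transport, 0 had a log2 change above 0, with a median of -0.127.

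The smallest adjusted p on the lists was that of Tmem35a, the chaperone NACHO that helps nicotinic receptors assemble, listed under its older name Tmem35. Tmem35 was at 17.6, 13.2 and 13.7 RPKM in miR CKO 1 to 3, against 7.25, 6.07 and 9.71 RPKM in controls 1 to 3, with every miR CKO library above every control. Its means were 14.8 ± 2.40 RPKM in miR CKO and 7.68 ± 1.86 RPKM in controls (SD, n = 3 each), and the log2 change was 0.88 (limma adjusted p = 0.250). Tmem35 is on the X chromosome, and its log2 change was 0.76 without miR CKO 1, the library with Xist. Of 7 tested genes in this list of nicotinic chaperones, prototoxins and endplate proteins, 6 had a log2 change above 0. Ly6e, a prototoxin of the Ly6 family, was at 21.2 to 25.2 RPKM in miR CKO and 19.6 to 20.4 RPKM in controls, without overlap (log2 change 0.19, limma adjusted p = 0.935). Ly6h, of the same family, was at 6.02 ± 1.58 RPKM in miR CKO and 4.78 ± 1.32 RPKM in controls (SD, n = 3 each).

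The vesicular glutamate transporter Slc17a6 was at 36.6 ± 4.65 RPKM in miR CKO and 35.3 ± 4.57 RPKM in controls (SD, n = 3 each), while Chat, the enzyme of acetylcholine synthesis, stayed at or below 0.0533 RPKM and its vesicle transporter Slc18a3 at or below 0.185 RPKM. Of the other vesicular glutamate transporters, Slc17a7 was at 4.78 to 7.59 RPKM in miR CKO and 3.91 to 4.24 RPKM in controls, without overlap (log2 change 0.49, limma adjusted p = 0.717), and Slc17a8 stayed at or below 0.0945 RPKM. Tph1, an enzyme of serotonin synthesis, was at 1.599 ± 0.348 RPKM in miR CKO and 1.08 ± 0.328 RPKM in controls, and the glutamate transporter Slc1a2 was at 8.69 ± 1.86 RPKM in miR CKO and 6.83 ± 1.04 RPKM in controls (SD, n = 3 each). Of 11 tested genes for transmitter synthesis, loading and removal, 5 had a log2 change above 0. Among channels opened by ligands outside the name rule, the acid-sensing Asic1 (listed as Accn2) was at 23.9 ± 2.66 RPKM in miR CKO and 21.9 ± 2.45 RPKM in controls (SD, n = 3 each). Asic2 (Accn1) was at 4.62 ± 0.871 RPKM in miR CKO and 5.20 ± 0.349 RPKM in controls, and Asic3 (Accn3) was at 1.08 ± 0.701 RPKM in miR CKO and 1.97 ± 1.02 RPKM in controls (SD, n = 3 each). Of 5 tested genes among these other channels, 3 had a log2 change above 0.

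**Figure D5:**
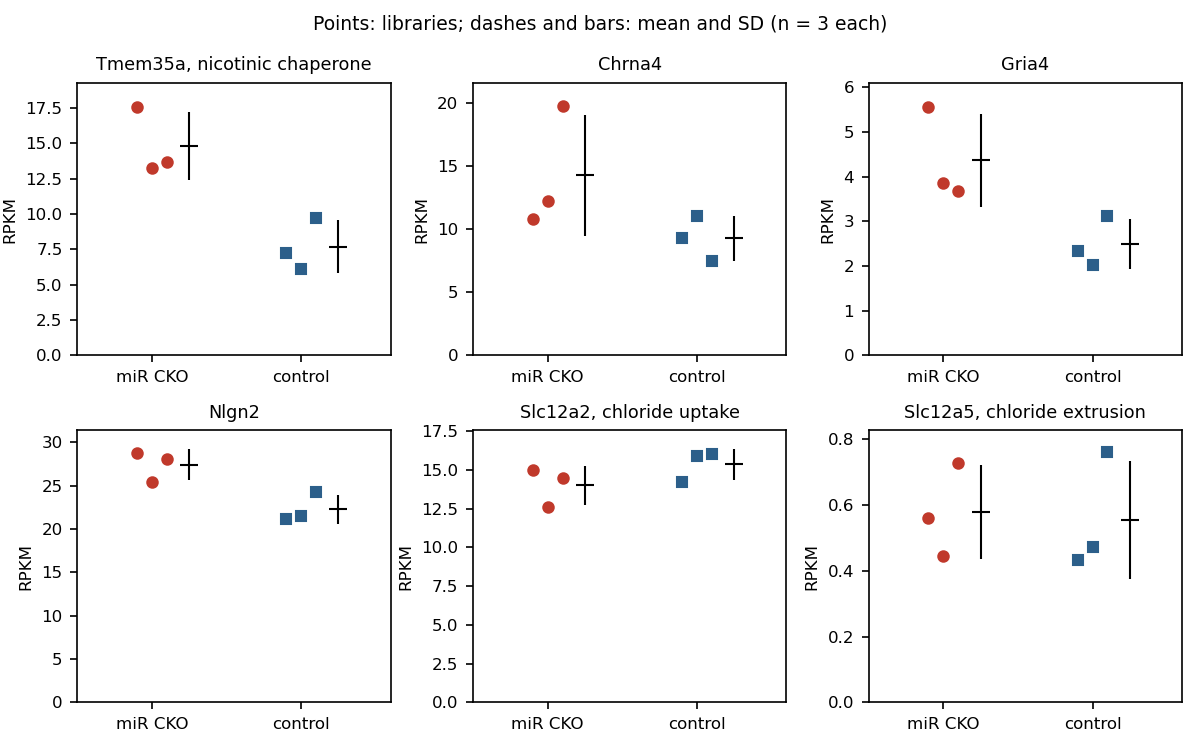
RPKM (linear axes from 0) of 2 subunit genes, Gria4 and Chrna4, and 4 partner genes, with libraries as points (miR CKO left, control right) and the mean and SD beside them (n = 3 each). The groups do not overlap for Tmem35a, Gria4 and Nlgn2, they overlap for Chrna4, Slc12a2 and Slc12a5, and Slc12a2 is on while Slc12a5 stays under 1 RPKM.

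The subunits that were not tested held 4 whose RPKM did not overlap between groups. Grin3a, Gabra4 and Chrnb3 were lower and Chrne was higher in miR CKO, among 35 subunits above 0, and of the 6906 untested genes above 0, 4.71% were lower and 2.52% higher without overlap, 7.23% in all. Chrne was named after its values were seen, and its reads do overlap, since miR CKO 2 and 3 and control 2 each held an estimated 1 read. The gene models behind the values matched the main transcript within 1.5 times in length for 47 of 60 subunits with recovered reads.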

How the data were processed

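Poly(A) RNA of lumbar ganglia was extracted with Trizol and made into stranded libraries with a TruSeq kit, per the labels' protocols. The submitters' processing notes name Bowtie as a tool and mm10 as the build. Versions, the counting tool, its use of strand and its annotation are not stated there. The table that the authors deposited comes with decimal commas and no unit, read here as RPKM because a gene's values are whole multiples of a step, and the step falls as the transcript gets longer (rho -0.918 by Spearman, over 2586 single-transcript genes that are not independent replicates). Whole reads within 0.01 were found for 91.9% of 18983 genes above 0 in at least 2 libraries, and depth and reads are estimates from these steps. P2rx3 is among 5 of the 65 subunits without them.

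Genes at 1 RPKM or more in at least 3 libraries were tested with limma 3.58.1 in R 4.3.3 (trend and robust settings) on log2(RPKM + 1), with a Benjamini-Hochberg threshold of 0.05. The fit was tested on simulated data. Some genes of the subunit families and lists are counted but not reported here by name. Named genes were the subunits that were on, the highest 3 of each family, those past a threshold or without overlap, the muscle subunits, and up to 3 per list by p or level. The subunits, lists and tests were chosen with earlier results of these data known. Other pseudocounts, filters, scalings, a replicate block and left-out libraries were tried. Tables and figures were made with pandas 2.3.3, NumPy 2.4.6, SciPy 1.17.1 and matplotlib 3.10.9 in Python 3.11.15. Seed sites were read from GENCODE M21 transcripts.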

Additional observations from a re-analysis of the deposited data

How the results depend on the processing

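No subunit gene passed limma's threshold in any of the 14 alternatives, and the smallest adjusted p of a subunit ranged from 0.342 to 0.999955, beside 3 subunits at an unadjusted p under 0.05 in the reported fit. Over all genes limma called 8. It called 2 after median centring, and 688 at an unadjusted p under 0.05. It called 0 with upper quartile scaling (698), with no trend (709), with the replicate number as a block (847) and without controls 2 and 3 together (395). With a library left out it called 0 to 2 genes, with 440 to 1023 at an unadjusted p under 0.05. The cause was not tested. Whether the replicate numbers pair the libraries could not be decided from 3 libraries per group. Deviations of same-numbered libraries correlated at 0.359, 0.330 and -0.221, and those of unlike-numbered libraries at -0.700 to 0.524. The block called 0 subunits, as did the reported fit.

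The direction held in 201 of 202 alternatives for the changes of 15 genes given from the reported fit, which does not hold Grin3a and Gabra4. The exception was P2rx3, at 0.000683 without miR CKO 3, with a range of -0.402 to 0.000683 over left-out libraries. None of the 15 passed in the reported fit, and many were named for their change or p in these same data. A kept direction is therefore no independent support for their changes. Of the 27 tested subunits, 10 kept their sign in every alternative that tested them and 17 did not. The other filters, the fit with no trend and the replicate block cannot change the log2 change of a tested gene. Gria4 was at 0.614 in each of these, as in the reported fit. Their direction was thus fixed in advance, and the counts of kept directions and kept signs include them. Gria4 ranged from 0.46 to 0.78, Grik3 from 0.40 to 1.02, Chrna4 from 0.30 to 0.70, Chrnb1 from -1.08 to -0.53 and Htr3a from -1.35 to -0.49, though Chrnb1 and Htr3a met the filter in only 10 of the 14. Chrna5 ranged from -0.46 to -0.18, Shisa6 from 0.20 to 0.60 and Slc12a7 from -0.30 to -0.16. The 27 subunits on became 31 at 0.5 RPKM, 21 at 2 RPKM, 22 in all 6 libraries and 27 by mean, and 24 without controls 2 and 3 and 25 without miR CKO 3, both chosen after seeing the data. With about 20 M reads, subunits under 0.1 RPKM rest on few reads.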
